A study of Mus musculus with 8 samples.

Results

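Myc, Mycn, Max, Mga, E2f6, L3mbtl2 and Pcgf6 encode the MYC transcription factors, their partner MAX, and subunits of a repressor that binds germline genes. These 7 genes were taken by symbol from a mouse RNA-seq table of 20153 gene identifiers. All 7 reached the filter on low values, 1 FPKM in at least 2 libraries, and were among the 11083 genes tested. MYC and MYCN are growth-promoting transcription factors that bind the E-box sequence as dimers with MAX. MAX also pairs with MGA, the scaffold of the non-canonical Polycomb complex PRC1.6, which holds E2F6, L3MBTL2 and PCGF6 and is known for silencing meiotic and germ cell genes in embryonic stem cells. Loss of Max in embryonic stem cells is known to release such germline genes.

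The table holds 8 libraries, 2 for each of 4 groups. Primordial germ cells (PGCs) are the founders of eggs and sperm, and those used here were sorted from Oct4gfpXCD1 embryos at E9.5 (P0), with about 250 cells in a library. Lines 4 and 7 of pluripotent embryonic germ cells (EGCs) came from sorted E9.5 PGCs of the same Oct4gfpXCD1 strain and were grown with serum and LIF on mouse embryonic fibroblasts to P6, with 500 cells in a library. Both in vitro groups started from BVSC embryonic stem cells at P21: iPGCs (1500 cells) were made in hanging drops, and PGC-like cells (PGCLCs, 300 to 500 cells) in aggregates through an epiblast-like stage. PGCs and EGCs share a strain but differ in passage, culture and cell number, and iPGCs and PGCLCs share strain, passage and stem cell origin but differ in method and cell number. In the other 4 comparisons strain, passage and origin all change with the group and cannot be told apart from it, and a group of 2 EGC lines rests on 2 lines. Nothing in the labels says that the libraries numbered 1 and 2 came from separate cultures or litters, so p-values measure only the spread between these libraries.

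Values are FPKM, that is, fragment counts scaled to transcript length and library size, so levels may be compared between genes per length. Read totals were not given, and the lowest values put them at roughly 2.82 to 17.8 M reads, with iPGC library 1 the shallowest. Both PGC libraries carried transcripts of other cell types: 7 blood markers summed to 118 FPKM in PGC library 1 and 38.3 in PGC library 2, against at most 3.19 in the other 6 libraries. In PGC library 1 they were mostly Lyz2 (62.1), Pf4 (27.2) and Fcer1g (21.4), and in PGC library 2 mostly Alas2 (32.7, against 2.26 in PGC library 1) with Fcer1g at 4.85; Fcer1g was at 0 in the other 6, and Pf4 and Ptprc were above 0 in PGC library 1 alone. The 8 extraembryonic endoderm markers summed to 177 FPKM in PGC library 1 against at most 10.8 in the other 7, with Afp at 82.6 there against at most 0.06 elsewhere. Germ cell markers were highest in the germ cell groups: 9 PGC markers summed to 615 to 1393 FPKM in the 6 PGC, iPGC and PGCLC libraries and to 129 and 254 in the EGC lines. The 8 fibroblast markers, which feeder cells would add, summed to 18.0 FPKM in PGC library 1 and at most 3.70 in the other 7; in EGC lines 4 and 7 they summed to 1.25 and 3.57, of which Thy1 gave 0.96 and 3.56. The 8 pluripotency markers summed to 102 and 183 FPKM in PGCs and to 447 to 890 elsewhere, and 7 mesoderm markers to 56.6 and 23.9 in PGCs and at most 16.6 elsewhere. Neural markers (5) summed to 57.6 and 2.21 FPKM in PGC libraries 1 and 2, and to 55.6 and 37.7 in EGC lines 4 and 7. In iPGCs and PGCLCs they summed to 9.29 to 21.7. Endothelial markers (6) ran from 15.4 to 101, mostly Pecam1, which germ cells also express. The part of these other-cell transcripts in the results below was not tested beyond leaving out single libraries, which never removes both PGC libraries. In bulk samples, fewer cells expressing a gene and less RNA per cell cannot be told apart.

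The DNA letters through which these factors are known to act can be looked for in the promoters of the genes themselves and of their germline targets. RefSeq promoter windows (GRCm38.p6, 250 bases before to 50 after a gene's start) were searched on both strands for the E-box CACGTG and for TCCCGC, the core of the E2F6 motif; the strings can share at most 1 base. Of the 7 genes, 6 had a window there. The Max window holds an E-box and the E2f6 window holds the E2F6 core, and both are shown because they are the promoters of the family's own members with a match; the other 4 windows, of Mycn, Mga, L3mbtl2 and Pcgf6, hold neither string. Capitals mark the E-box in the first line and the E2F6 core, read from the opposite strand as GCGGGA, in the second.
Max (chr12:76962231-76962266, minus strand): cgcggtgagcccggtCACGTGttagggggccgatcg
E2f6 (chr12:16810897-16810932, plus strand): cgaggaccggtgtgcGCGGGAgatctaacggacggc

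A list of 24 meiotic and germ cell genes known as PRC1.6 targets was searched in the same way. Of its 23 genes with a window, 12 held an E-box, 10 held the E2F6 core, 7 held both in 1 promoter and 8 held neither. Over all 27025 genes with a window, 8.09% held an E-box, 22.1% the E2F6 core and 2.32% both; by window, the shares were 7.15%, 20.0% and 1.99% of 32851. The list was compiled from genes known as targets, so this is a description and not evidence of binding here. The 7 genes with both strings were found by sequence and not by their RNA levels. The window of 1 of them, Stag3, is not shown. The stretch around an E-box (capitals) is shown for the other 6.
Ddx4 (chr13:112652319-112652354, minus strand): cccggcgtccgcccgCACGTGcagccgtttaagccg
Mael (chr1:166238947-166238982, minus strand): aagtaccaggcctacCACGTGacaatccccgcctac
Sycp1 (chr3:102936174-102936209, minus strand): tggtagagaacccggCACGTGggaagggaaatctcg
Sycp3 (chr10:88459529-88459564, plus strand): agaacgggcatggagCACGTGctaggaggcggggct
Slc25a31 (chr3:40708763-40708798, plus strand): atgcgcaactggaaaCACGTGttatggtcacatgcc
Hormad1 (chr3:95559642-95559677, plus strand): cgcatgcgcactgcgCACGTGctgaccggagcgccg

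The dominant MYC gene was Mycn, and it stood highest in embryonic PGCs. Mycn (ENSMUSG00000037169, chr12:12936093-12941914, minus strand, GRCm38), the MYC paralog prominent in early embryos, measured 43.8 and 51.8 FPKM in PGC libraries 1 and 2. It measured 16.6 and 16.3 FPKM in the iPGC libraries, 17.8 and 20.2 in PGCLCs, with 20.7 and 20.3 in EGC lines 4 and 7. Both PGC libraries lay above all 6 others, a pattern shared by 671 (6.05%) of the 11083 tested genes, and replicates of each group were within 1.18-fold of each other. The mean in PGCs was 47.8 ± 5.70 FPKM (SD, n = 2), which was 2.90-fold the iPGC mean of 16.5 ± 0.19, 2.52-fold the PGCLC mean of 19.0 ± 1.63 and 2.33-fold the EGC mean of 20.5 ± 0.28. Among the tested genes of each library, Mycn stood at percentile 92.6 and 93.1 in PGCs and between 71.6 and 84.4 elsewhere.

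These differences were read from limma, a linear model with moderated variances, fitted to log2(FPKM + 1) of all tested genes in all 8 libraries, with Benjamini-Hochberg adjustment within each comparison. A log2 difference on this scale understates the change of low genes. The median gene was itself higher by 0.47 in iPGCs and 0.44 in PGCLCs than in PGCs, stood at -0.40 and -0.38 in EGCs against iPGCs and PGCLCs, and was within 0.1 of level in the remaining comparisons. Where this shift exceeds 0.1, relative differences are given with the shift subtracted, while p-values refer to the difference before subtraction.

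Mycn differed from PGCs by -1.48 ± 0.42 (log2, SE) in iPGCs, with an unadjusted limma p of 0.00729 and an adjusted p of 0.124; relative to the median gene the difference was -1.94 (95% interval -2.91 to -0.98). In PGCLCs the difference was -1.28 ± 0.42 (adjusted p = 0.148 in limma; relative -1.72, -2.68 to -0.76). In EGCs it was -1.18 ± 0.42 (adjusted p = 0.212 in limma; interval -2.14 to -0.21). None of these passed the threshold of 0.05 over all genes, although 2 of 2 libraries in each culture group lay below both PGC libraries. The 3 comparisons share the PGC libraries and are not independent of each other. Leaving out either PGC library, or any other library, kept the direction of Mycn in all 6 comparisons. Without PGC library 1 the differences from PGCs were -1.60 in iPGCs, -1.40 in PGCLCs and -1.30 in EGCs, and without PGC library 2 they were -1.36, -1.17 and -1.06.

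**Figure D1:**
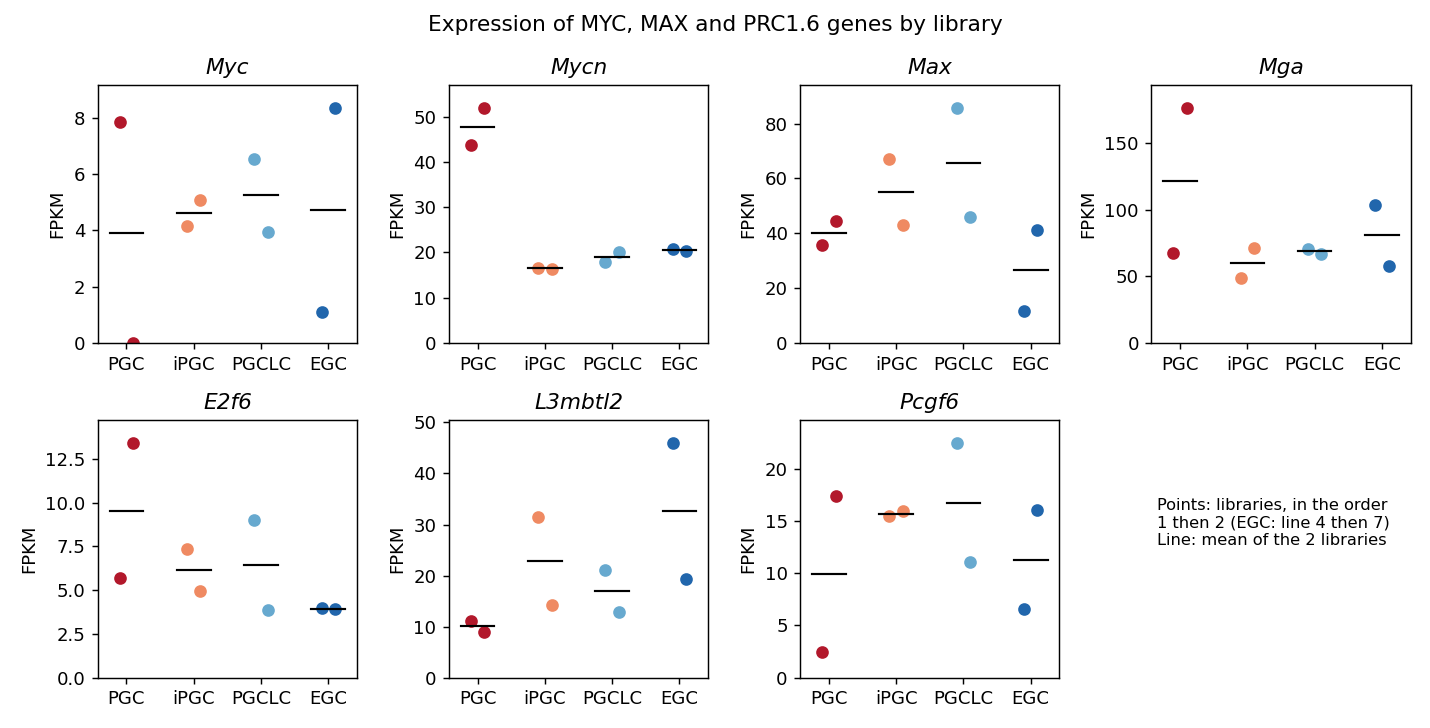
FPKM of Myc, Mycn, Max, Mga, E2f6, L3mbtl2 and Pcgf6 in each library (points, library 1 then 2, or EGC line 4 then 7) with the group mean (line, n = 2) and an axis from 0 for each gene. Mycn at 43.8 and 51.8 FPKM in PGCs stands apart from 16.3 to 20.7 elsewhere, while points of 1 group lie far apart for Myc, Pcgf6, Mga in PGCs and Max in EGCs.

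Myc itself reached at most 8.33 FPKM and differed more between the libraries of PGCs and between the EGC lines than between group means. Among the tested genes it stood at percentile 63.0 in PGC library 1, 64.4 in EGC line 7 and 6.37 to 48.2 elsewhere. Myc (ENSMUSG00000022346, chr15:61985391-61990374, plus strand), the founding member of the family, measured 7.84 FPKM in PGC library 1 and was listed at 0 in PGC library 2. Its values were 4.15 and 5.09 FPKM in iPGCs, 6.55 and 3.94 in PGCLCs, with 1.11 and 8.33 in EGC lines 4 and 7. The order of the group means, from PGCs at the low end to PGCLCs at the high end, does not separate any neighbours, since all groups overlapped. PGC library 2 had 9533 genes listed at 0, against 6533 to 8792 in the other libraries. An exact 0 can be a failed estimate or a missed transcript, which was not tested, so no fold is given against PGC library 2. The log2 differences from PGCs were 0.91 ± 1.08 in iPGCs (relative 0.45), 1.04 ± 1.08 in PGCLCs (relative 0.60) and 0.58 ± 1.08 in EGCs. Without PGC library 2 the differences before subtraction turned to -0.66, -0.53 and -0.996. Without EGC line 4 the difference between EGCs and iPGCs turned from -0.34 (relative 0.07) to 0.74. That between EGCs and PGCLCs turned from -0.46 (relative -0.08) to 0.61.

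Added together, Mycn and Myc gave 51.6 and 51.8 FPKM in PGC libraries 1 and 2, against 20.8 to 28.7 in the other 6. Mycn made up 84.8% and 100% of that sum in PGCs, 80.0% and 76.3% in iPGCs, 73.2% and 83.6% in PGCLCs, with 94.9% and 70.9% in EGC lines 4 and 7. In the 7 libraries with a Myc value, the Mycn level per length was 2.44 to 18.8 times that of Myc. Another paralog, Mycl, ran from 0 to 15.8 FPKM, with the highest value in PGC library 2.

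**Figure D2:**
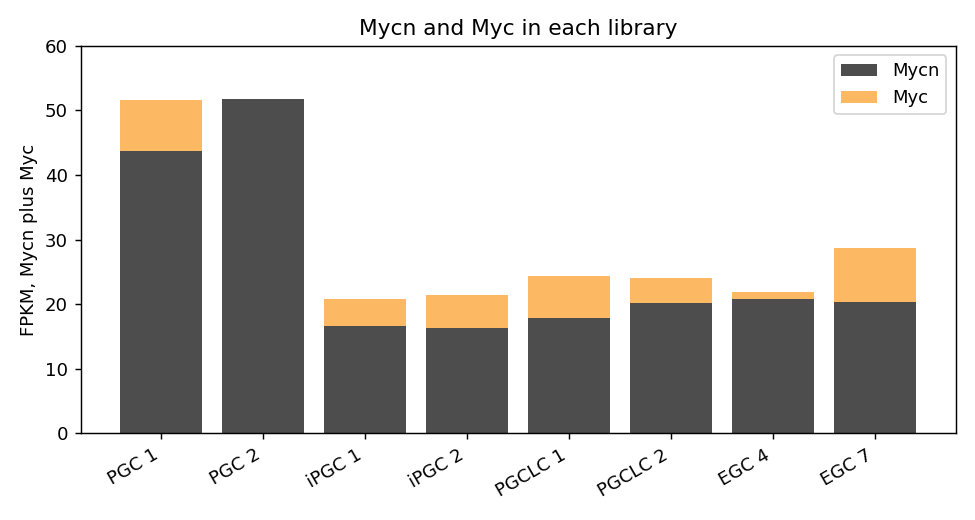
Stacked bars of Mycn (dark) and Myc (orange) in FPKM for each library, from 0. The sum is 51.6 and 51.8 FPKM in PGCs and 20.8 to 28.7 in the other libraries, and Mycn is the larger part in all 8.

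Max, the obligate partner of both the MYC proteins and MGA, was at its lowest in EGC line 4. Max (ENSMUSG00000059436, chr12:76937269-76962201, minus strand) measured 35.8 and 44.3 FPKM in PGCs, 66.9 and 43.0 in iPGCs, 85.5 and 46.0 in PGCLCs, with 11.5 and 41.3 in EGC lines 4 and 7. Both PGCLC libraries lay above both PGC libraries, and both EGC lines lay below both iPGC and both PGCLC libraries. The difference of EGCs from PGCLCs was -1.47 ± 0.63 (unadjusted limma p of 0.0466 and an adjusted p of 0.352; relative -1.08, 95% interval -2.53 to 0.36), and from iPGCs -1.25 ± 0.63 (adjusted p = 0.542 in limma; relative -0.84). Relative to the median gene, Max differed from PGCs by -0.05 in iPGCs and 0.21 in PGCLCs. In EGCs the difference from PGCs was -0.83 ± 0.63, and without line 4 it turned to 0.05, so that value rests on 1 line.

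The ratio of Max to Mycn was lowest in PGCs and EGC line 4. Max stood at 0.82 and 0.86 times Mycn per length in PGC libraries 1 and 2, 4.03 and 2.63 times in iPGCs, 4.79 and 2.28 times in PGCLCs, with 0.56 and 2.03 times in EGC lines 4 and 7. The 2 PGC libraries lay below all 4 iPGC and PGCLC libraries, and between the EGC lines. The Max gene overlaps a short predicted gene on the same strand, Gm47218, which is not among the genes analysed here.

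Mga was the most abundant of the 7 transcripts in 6 of 8 libraries. Mga (ENSMUSG00000033943, chr2:119897228-119969581, plus strand), the scaffold of PRC1.6 that carries both a T-box and a MAX-binding domain, measured 67.6 and 176 FPKM in PGCs, 48.5 and 71.3 in iPGCs, 70.5 and 67.1 in PGCLCs, with 104 and 58.0 in EGC lines 4 and 7. PGC library 2 was 2.61-fold above PGC library 1, and the groups overlapped in all 6 comparisons. The differences from PGCs were -0.88 ± 0.54 in iPGCs (adjusted p = 0.403 in limma; relative -1.35), -0.66 ± 0.54 in PGCLCs (adjusted p = 0.540 in limma; relative -1.10) and -0.49 ± 0.54 in EGCs (adjusted p = 0.690 in limma). Without PGC library 2 they were -0.20, 0.02 and 0.20. Mga was 1.54 to 5.00 times Mycn per length, and 0.72 to 8.99 times Max, with the highest value of both ratios in EGC line 4.

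E2f6, the E2F-family repressor that brings PRC1.6 to promoters with its motif, stood between percentile 37.6 and 72.7 of the tested genes. E2f6 (ENSMUSG00000057469, chr12:16810963-16839742, plus strand) measured 5.69 and 13.4 FPKM in PGCs, 7.34 and 4.95 in iPGCs, 8.99 and 3.88 in PGCLCs, with 3.99 and 3.89 in EGC lines 4 and 7. The EGC lines were within 1.02-fold of each other and lay below both PGC and both iPGC libraries. The difference of EGCs from PGCs was -0.99 ± 0.65 (adjusted p = 0.483 in limma), with an interval of -2.47 to 0.49 that includes 0. In iPGCs and PGCLCs the differences from PGCs were -0.48 and -0.49 (relative -0.95 and -0.93), and they turned to 0.07 and 0.06 without PGC library 2.

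L3mbtl2 ran from 8.98 FPKM in PGC library 2 to 45.9 in EGC line 4. L3mbtl2 (ENSMUSG00000022394, chr15:81663889-81688315, plus strand), which encodes a chromatin-compacting protein with MBT domains, measured 11.1 and 8.98 FPKM in PGCs, 31.4 and 14.2 in iPGCs, 21.04 and 12.9 in PGCLCs, with 45.9 and 19.2 in EGC lines 4 and 7. All 6 culture-derived libraries lay above both PGC libraries, but replicates within those groups differed by 1.63-fold to 2.39-fold. How many of all tested genes share that pattern was not counted, so it is a description and not a trait of L3mbtl2. Groups without overlap, in either direction, made up 44.1% (EGCs), 52.5% (iPGCs) and 45.2% (PGCLCs) of tested genes against PGCs. The median gene was itself higher in iPGCs and PGCLCs than in PGCs. EGCs differed from PGCs by 1.49 ± 0.61 (unadjusted limma p of 0.0397 and an adjusted p of 0.266; interval 0.09 to 2.88), with a mean 3.24-fold higher. In iPGCs the difference was 1.01 ± 0.61 (adjusted p = 0.397 in limma; relative 0.55), and in PGCLCs 0.67 ± 0.61 (adjusted p = 0.589 in limma; relative 0.23). The 3' part of L3mbtl2 overlaps Chadl on the opposite strand, and whether strand was used in counting is not given in the sources used here, so their reads may not be separable. Chadl was listed at 2.47 FPKM in PGC library 2, at 1.18 in EGC line 4 and below 1 in the other 6 libraries.

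Pcgf6, the subunit that defines PRC1.6 among the Polycomb complexes, was lowest in PGC library 1 and near its highest in PGC library 2. Pcgf6 (ENSMUSG00000025050, chr19:47033617-47050906, minus strand) measured 2.45 FPKM in PGC library 1 and 17.4 in PGC library 2, 15.5 and 15.9 in iPGCs, 22.5 and 11.1 in PGCLCs, with 6.54 and 16.1 in EGC lines 4 and 7. All groups overlapped. The differences from PGCs were 1.07 ± 0.84 in iPGCs (relative 0.60), 1.08 ± 0.84 in PGCLCs (relative 0.64) and 0.51 ± 0.84 in EGCs, with adjusted limma p-values of 0.514, 0.516 and 0.799. Without PGC library 1 they turned to -0.14, -0.13 and -0.70.

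Across the 7 genes, 0 passed the limma threshold in any of the 6 comparisons. The share of all tested genes that passed was small as well: 0.74% for EGCs against PGCs, 0.794% for iPGCs against PGCs, 1.06% for PGCLCs against PGCs, 0.018% for PGCLCs against iPGCs, 0.117% for EGCs against iPGCs and 0.0993% for EGCs against PGCLCs. At an unadjusted limma p below 0.05 there were 2 of 7 in EGCs against PGCs (Mycn and L3mbtl2), Mycn alone in each of the comparisons of iPGCs and PGCLCs with PGCs, Max alone in EGCs against PGCLCs, and 0 in the remaining comparisons. The share of all tested genes at that unadjusted p was 17.2% for EGCs, 19.5% for iPGCs and 19.5% for PGCLCs against PGCs, 4.68% for PGCLCs against iPGCs, 10.3% for EGCs against iPGCs and 13.9% for EGCs against PGCLCs, so 0 to 2 of 7 is not a result about the 7 genes. The smallest log2 difference called for any gene against PGCs was 2.44 in EGCs, 2.52 in iPGCs and 2.45 in PGCLCs, and those of Mycn were smaller. No alternative setting, leaving out each library included, brought any of the 7 past the threshold.

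Groups without overlap were counted as a description. They numbered 3 of 7 for EGCs against PGCs (44.1% of all tested genes), 2 for iPGCs against PGCs (52.5%) and 3 for PGCLCs against PGCs (45.2%). For PGCLCs against iPGCs there was 1 such gene, Mycn (36.8% of all genes), for EGCs against iPGCs there were 3 (50.3%), and for EGCs against PGCLCs there were 2 (46%). These shares are near or below the background and are not a result about the 7 genes.

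**Figure D3:**
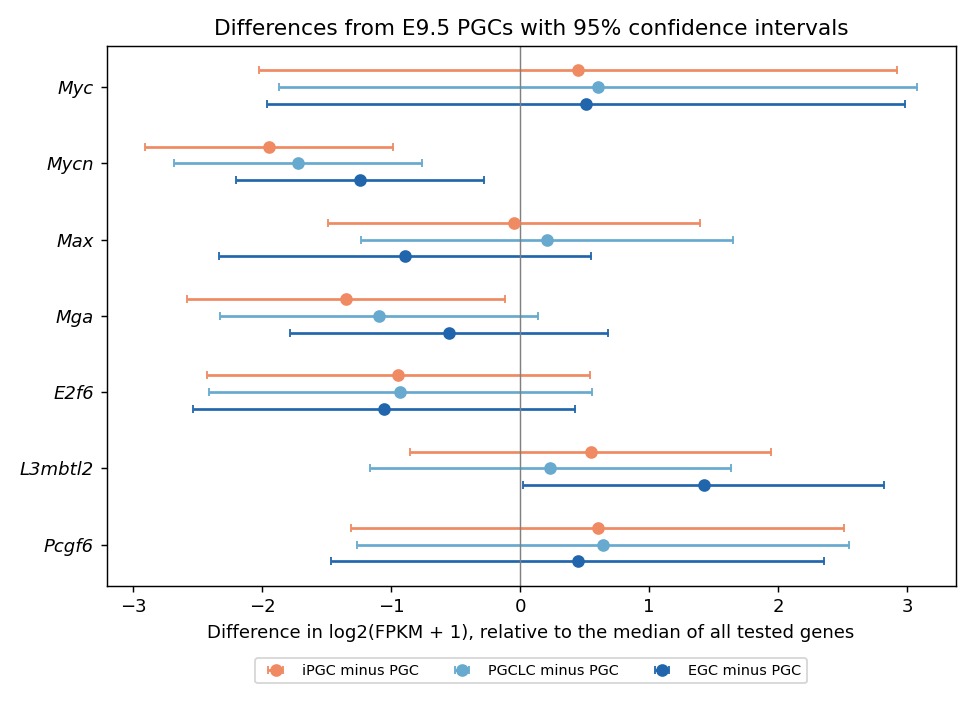
Difference in log2(FPKM + 1) of each gene from E9.5 PGCs in iPGCs, PGCLCs and EGCs, relative to the median of all tested genes (points), with 95% confidence intervals from limma (bars). Mycn is the gene whose 3 intervals all lie below 0, at -1.94, -1.72 and -1.24, before any adjustment over genes.

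Between the in vitro groups no difference was called for these genes, and the intervals are wide. PGCLCs minus iPGCs ranged from -0.34 for L3mbtl2 to 0.22 for Mga and Max on the log2 scale, with adjusted p = 1 in limma for all 7. The narrowest 95% interval was that of Mycn, at -0.77 to 1.15, and the widest that of Myc, at -2.35 to 2.60. A difference of a log2 of 1 is therefore inside the interval of every one of the 7 genes.

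The partners of PRC1.6 were read from a list of 12 subunit genes, all of them tested. With limma, 0 of the 12 passed in any comparison. At an unadjusted limma p below 0.05 there were 2 in iPGCs and 1 in PGCLCs against PGCs (19.5% of all tested genes in each). EGCs had 2 against iPGCs (10.3%) and 2 against PGCLCs (13.9%), and the remaining comparisons had 0 (4.68% and 17.2%). The median difference of the 12 from PGCs was -0.32 in EGCs, 0.01 in iPGCs and 0.45 in PGCLCs, against 0.07, 0.47 and 0.44 over all genes. Hdac1, a histone deacetylase, measured 13.2 and 28.7 FPKM in PGCs, 89.6 and 51.3 in iPGCs, 104 and 78.7 in PGCLCs, with 13.6 and 10.6 in EGC lines 4 and 7. All 4 iPGC and PGCLC libraries lay above the PGC and EGC libraries. That split was not counted over all tested genes, whose median was itself higher in iPGCs and PGCLCs than in PGCs or EGCs. The PGCLC difference of Hdac1 from PGCs was 2.15 ± 0.52 (adjusted p = 0.0815 in limma; relative 1.72). Ehmt1, a histone H3 lysine 9 methyltransferase, went the other way in iPGCs, with 11.3 and 10.6 FPKM against 25.1 and 51.7 in PGCs, a difference of -1.63 ± 0.49 (adjusted p = 0.136 in limma; relative -2.10). Hdac2 ran from 18.0 to 89.7 FPKM with both extremes outside PGCs, and Wdr5, a histone-binding adaptor, measured 2.93 FPKM in PGC library 2 against 14.6 to 21.4 in the other 7 libraries.

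Subunits of the other PRC1 complexes were also below the threshold, with 0 of 15 tested genes passing in limma in any comparison. At an unadjusted limma p below 0.05 there were 4 in EGCs against PGCs (17.2% of all tested genes). There were 4 in iPGCs and 5 in PGCLCs against PGCs (19.5% each), and 1 in PGCLCs against iPGCs (4.68%). EGCs had 1 against iPGCs (10.3%) and 3 against PGCLCs (13.9%). The median difference of the 15 from PGCs was 0.59 in EGCs, 0.14 in iPGCs and 0.75 in PGCLCs. Relative to all genes it was 0.52, -0.32 and 0.32 in the same order. Kdm2b, the CpG-island-binding subunit of PRC1.1, measured 1.44 and 0.99 FPKM in PGCs, 8.87 and 9.27 in iPGCs, 13.3 and 14.8 in PGCLCs, with 77.6 and 7.68 in EGC lines 4 and 7. Cbx7, the chromobox subunit of canonical PRC1 in stem cells, measured 139 and 186 FPKM in the EGC lines, 94.99 and 14.8 in PGCs and 18.6 to 38.2 in the 4 in vitro libraries. Pcgf5, a paralog of Pcgf6, stood at 39.3 and 20.2 FPKM in PGCs and at 3.18 to 12.9 in the other 6 libraries, with a difference of -2.56 ± 0.60 in EGCs (adjusted p = 0.0924 in limma). Bcor, a PRC1.1 subunit, was highest in PGCLC library 1 at 58.4 FPKM, against 2.61 to 15.8 in the other 7.

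Germline genes known to be silenced by PRC1.6 were more widely detected in iPGCs and PGCLCs than in PGCs or EGC lines. Of the 24 listed, 6 and 8 reached 1 FPKM in PGC libraries 1 and 2, 15 and 16 in iPGCs, 17 and 15 in PGCLCs, with 9 and 8 in EGC lines 4 and 7. The share of all genes at 1 FPKM moved in the same direction but less, at 41.0% and 39.7% in PGCs, 48.8% and 49.8% in iPGCs, 45.4% and 48.2% in PGCLCs, with 43.1% and 46.0% in EGC lines 4 and 7. By summed level the 24 genes did not follow these counts. They summed to 39.8 and 138 FPKM in PGC libraries 1 and 2, 92.8 and 85.5 in iPGCs, and 163 and 127 in PGCLCs. In EGC lines 4 and 7 they summed to 62.1 and 37.4. PGC library 2 thus lay above both iPGC libraries and PGCLC library 2. Of the 18 tested genes, 1 rose in PGCLCs against PGCs, where 1.06% of all tested genes passed. In the other 5 comparisons 0 passed. At an unadjusted limma p below 0.05 there were 8 in PGCLCs and 5 in iPGCs against PGCs (19.5% of all tested genes in each). There were 5 in EGCs against PGCs (17.2%) and 1 in PGCLCs against iPGCs (4.68%). EGCs had 3 against iPGCs (10.3%) and 7 against PGCLCs (13.9%). The median difference from PGCs was 1.22 in PGCLCs, with 17 of 18 positive, and 0.89 in iPGCs, with 14 positive. In EGCs it was -0.20, with 6 positive. Over all tested genes the medians were 0.44, 0.47 and 0.07 in the same order. Several of the 18, Dazl and Smc1b among them, passed the filter only through culture-derived libraries, which favours a positive sign against PGCs. The medians, the counts of signs and the counts at an unadjusted p are therefore a description and not evidence of a difference from PGCs. The share of positive differences over all tested genes was not counted. The 6 genes that did not pass the filter, Sycp1, Tex101, Tdrd1, Tdrd9, Tex11 and Syce3, reached at most 3.05 FPKM.

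Dazl, an RNA-binding protein gene switched on as germ cells mature, was the gene that rose. It was listed at 0 in PGC library 1 and measured 0.16 FPKM in PGC library 2, 4.26 and 7.00 in iPGCs, 11.9 and 9.65 in PGCLCs, with 1.12 and 0.80 in EGC lines 4 and 7. The PGCLC difference from PGCs was 3.45 ± 0.57 (adjusted p = 0.0420 in limma, relative 3.01). The iPGC difference was 2.59 ± 0.57 (adjusted p = 0.0782 in limma, relative 2.13). The call was lost in most alternatives: the adjusted p was 0.0437 without PGC library 2 but 0.0718 without PGC library 1, 0.128 and 0.124 without iPGC library 1 or 2, 0.212 and 0.0843 without PGCLC library 1 or 2, and 0.0774 and 0.0763 without EGC line 4 or 7. It was also lost under 5 of 6 other settings, among them equal library medians (adjusted p = 0.0742 in limma). Its RefSeq window holds neither the E-box nor the E2F6 core.

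Other germline genes differed in which libraries carried them. Tuba3a, a testis alpha-tubulin gene with a near copy in Tuba3b whose reads may be split between them, measured 0.36 and 2.22 FPKM in PGCs, 12.9 and 19.3 in iPGCs, 16.2 and 27.6 in PGCLCs, with 0.28 and 0.94 in EGC lines 4 and 7. The 4 iPGC and PGCLC libraries lay above the 4 others, a split not counted over all tested genes. The PGCLC difference of Tuba3a from PGCs was 3.40 ± 0.67 (adjusted p = 0.0552 in limma; relative 2.97). Mael, a piRNA-pathway gene with both strings in its promoter, measured 1.46 FPKM in PGC library 1, was listed at 0 in PGC library 2, and measured 8.73 and 6.51 in iPGCs, 18.1 and 3.03 in PGCLCs, with 3.23 and 8.93 in EGC lines 4 and 7. Stk31, a Tudor-domain kinase gene, was highest in PGC library 2 at 20.3 FPKM, against 1.08 in PGC library 1 and 0.02 and 0.31 in EGC lines 4 and 7. Stag3, a meiotic cohesin gene, likewise peaked in PGC library 2 at 70.4 FPKM and ran from 5.58 to 39.4 in the other 7.

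**Figure D4:**
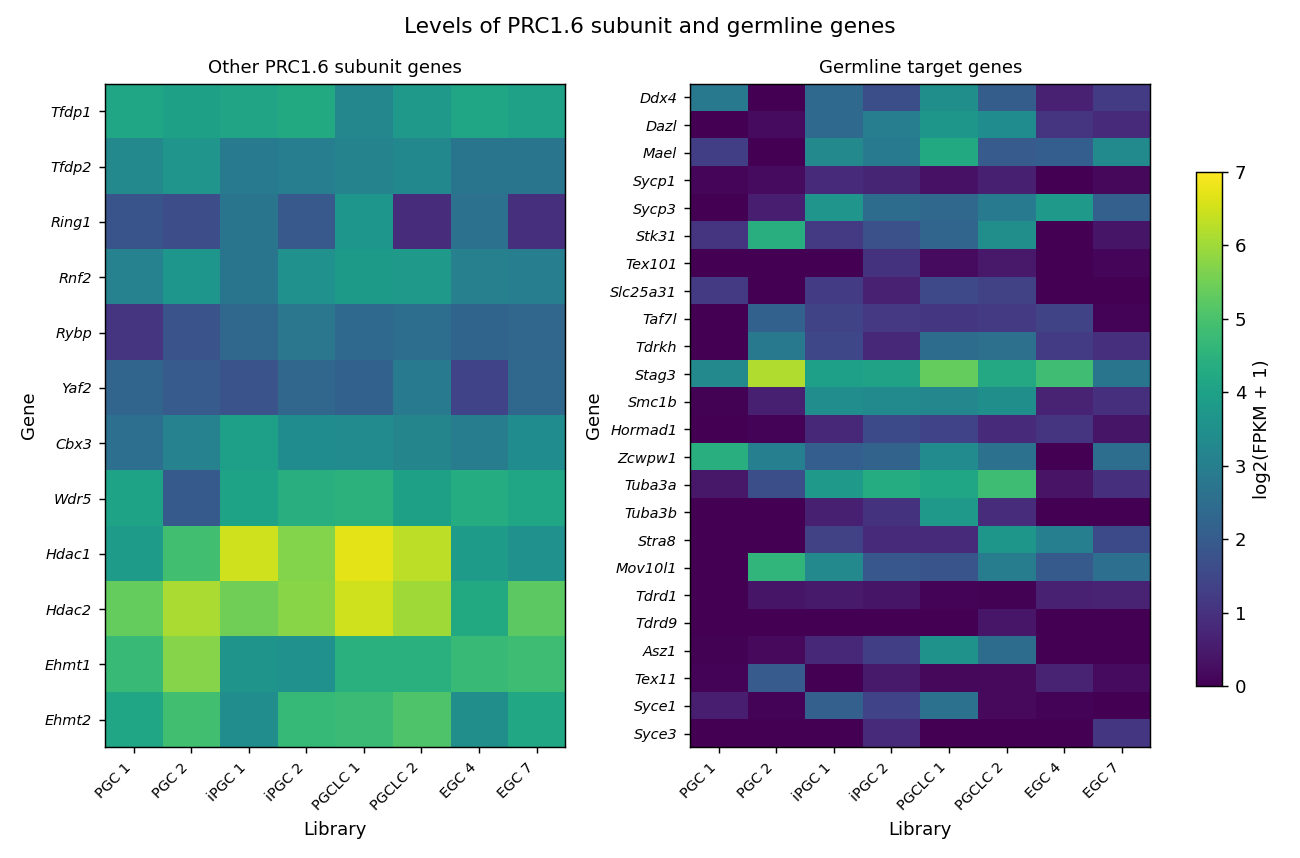
Levels of the 12 other PRC1.6 subunit genes (left) and the 24 germline target genes (right) in each library, as log2(FPKM + 1) on 1 colour scale. Hdac1 is brighter in the iPGC and PGCLC libraries than in PGCs and EGCs, and Dazl, Smc1b and Tuba3a are brighter in those 4 libraries than in the other 4.

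On the MYC side, a list of 27 growth and ribosome-building genes known as MYC targets was tested. With limma, 0 passed in any comparison. At an unadjusted limma p below 0.05 there were 4 in EGCs against PGCs (17.2% of all tested genes). There were 4 in iPGCs and 5 in PGCLCs against PGCs (19.5% each), and 0 in PGCLCs against iPGCs (4.68%). EGCs had 2 against iPGCs (10.3%) and 4 against PGCLCs (13.9%). The median difference of the 27 from PGCs was -0.21 in EGCs, -0.18 in iPGCs and 0.10 in PGCLCs, or -0.28, -0.65 and -0.34 relative to all genes. Of the abundant nucleolar genes, Npm1 ran from 211 to 477 FPKM and Ncl from 74.2 to 158. Ccnd2, cyclin D2, measured 21.8 and 5.31 FPKM in PGCs, 1.89 and 1.12 in EGC lines 4 and 7, and at most 0.12 in the 4 iPGC and PGCLC libraries, with a PGCLC difference of -3.56 ± 0.70 (adjusted p = 0.0552 in limma; relative -3.998). Ccnd2 was thus highest in the 2 PGC libraries, which also carried the most blood marker transcripts; the part of those cells was not tested. Dkc1, the dyskerin gene of small nucleolar particles, stood at 378 and 142 FPKM in PGCs against 35.4 to 157 elsewhere. Nop16, a nucleolar protein gene, was lowest in PGCs at 0.19 and 6.26 FPKM, against 9.38 to 25.0, and Polr1b, a subunit of RNA polymerase I, was lowest in EGC lines 4 and 7 at 5.77 and 4.97.

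Competitors and cofactors of MYC had no calls in limma either. Those called were 0 of 12 tested genes of the MAX network, Myc, Mycn, Max and Mga included, and 0 of 14 cofactor and turnover genes. At an unadjusted limma p below 0.05 the network had 3 in EGCs against PGCs (17.2% of all tested genes). It had 3 in iPGCs and 4 in PGCLCs against PGCs (19.5% each), 1 in EGCs against PGCLCs (13.9%) and 0 in the others (4.68% and 10.3%). The cofactors had 2 in iPGCs against PGCs (19.5%) and 1 in each other comparison (4.68% to 19.5%). Median differences from PGCs in EGCs, iPGCs and PGCLCs were 0.19, 0.42 and 0.61 for the network and -0.48, 0.21 and 0.32 for the cofactors. Relative to all genes they were 0.12, -0.05 and 0.17 for the network and -0.54, -0.26 and -0.12 for the cofactors. Mnt, a MAX partner that represses E-box genes, measured 1.57 and 19.8 FPKM in PGCs, 4.95 and 7.20 in iPGCs, 3.96 and 7.12 in PGCLCs, with 23.1 and 11.5 in EGC lines 4 and 7. Mlxip, which pairs with the MAX-like protein MLX in nutrient sensing, measured 13.3 and 24.5 FPKM in PGCs against 1.87 to 9.61 in the other 6 libraries. Its PGCLC difference from PGCs was -2.65 ± 0.65 (adjusted p = 0.0855 in limma, relative -3.08). Mlx went the other way, listed at 5.55e-07 and 1.88e-36 FPKM in PGC libraries 1 and 2 and at 3.20 to 11.6 in the other 6 libraries. Trrap, a scaffold of the histone acetyltransferases that MYC recruits, ran from 10.5 to 69.9 FPKM, and Kat2a, one of those acetyltransferases, from 4.65 in PGC library 1 to 31.8 in iPGC library 2 and PGCLC library 1. Ruvbl1, an ATPase of chromatin-remodelling complexes, was lowest in EGC lines 4 and 7 at 4.04 and 7.84 FPKM, against 11.3 to 17.7 in the other 6 libraries. Zbtb17, a zinc finger protein through which MYC represses genes, stood at 19.9 FPKM in PGCLC library 2 and 0.48 to 6.78 in the other 7.

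The E2F and MBT-domain families, of E2f6 and L3mbtl2, each had 0 of 8 tested genes called in limma. At an unadjusted limma p below 0.05 they had 1 and 3 in EGCs against PGCs (17.2% of all tested genes). In iPGCs against PGCs they had 2 and 2, and in PGCLCs against PGCs 2 and 0 (19.5% each). PGCLCs against iPGCs gave 1 and 0 (4.68%). EGCs gave 0 and 1 against iPGCs (10.3%) and 0 and 1 against PGCLCs (13.9%). E2f4, another E2F that represses, measured 3.85 and 12.0 FPKM in PGCs, 25.3 and 25.5 in iPGCs, and 14.03 and 15.6 in PGCLCs. In EGC lines 4 and 7 it measured 27.8 and 37.7. All 6 culture-derived libraries thus lay above both PGC libraries, as for L3mbtl2, a pattern not counted over all tested genes. E2f7, an atypical E2F, ran the other way in iPGCs and PGCLCs, at 5.25 to 7.495 FPKM against 22.9 and 21.1 in PGCs. Of the activating E2Fs, E2f1 ran from 1.58 FPKM in PGC library 1 to 20.1 in PGCLC library 1, and E2f3 stood at 35.9 in PGCLC library 2 against 2.26 to 16.1 in the other 7. Of the MBT-domain genes, Mbtd1 ran from 30.9 to 65.5 FPKM, Scmh1 from 15.3 in EGC line 4 to 43.8 in PGCLC library 1, and Sfmbt2 ran from 4.55 in EGC line 4 to 23.8 in iPGC library 2.

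As a description of likeness, Pearson's r of log2(FPKM + 1) over the 8 libraries was computed between each gene and the 4029 tested genes with a mean of at least 10 FPKM. The 8 points share groups and library depth, so no p is given. For Mycn the highest values were 0.976 with Pds5b, a cohesin regulator, 0.976 with Whsc1l1, a histone methyltransferase gene, and 0.971 with Tubgcp3, of the gamma-tubulin complex. Tubgcp3 measured 38.1 and 49.5 FPKM in PGCs and 7.87 to 11.4 in the other 6 libraries, the same split as Mycn. For L3mbtl2 the closest were Fdx1l (0.945), Rexo4 (0.940) and Tmem214 (0.923), and for Max they were Eif3g (0.976), Alg11 (0.951) and Phb2 (0.948), all 3 lowest in EGC line 4.

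For Mga the closest genes were Myg1 (0.916), Taf6 (0.914) and Zfp326 (0.909), which were highest in PGC library 2, as Mga was. E2f6 was closest to Ndc80 (0.977), Fat1 (0.968) and Vimp (0.963), Pcgf6 to Aldh18a1 (0.977), Mfsd10 (0.972) and Tmbim6 (0.971), and Myc to Chmp5 (0.929), Gclm (0.915) and Idh1 (0.915). None of the 7 was among another's 3 closest genes, with Myc and E2f6 below the mean needed to be compared. Between the 7 genes, r was most negative for Mga and Myc (-0.881), with Mga highest and Myc listed at 0 in PGC library 2, and most positive for Mga and Mycn (0.649).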

How the data were processed

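The series deposited 1 table of FPKM, made by the authors with TopHat2, Cufflinks and GRCm38 (mm10), per the submitters' processing notes; versions, annotation and strandedness were not given in the sources used here. Per the labels' protocols, RNA was amplified (Ovation RNA-Seq V2), and 50-base single-end reads were sequenced; spike-ins were not analysed here. Of 20171 entries, 18 extra entries of 15 identifiers were dropped, keeping the highest mean. GENCODE M21 gave coordinates for 19747 identifiers.

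The 11083 genes that reached 1 FPKM in 2 or more libraries were tested with limma 3.58.1 in R 4.3.3 on log2(FPKM + 1), with trended, robust variances, all 8 libraries in 1 fit and a threshold of 0.05 on two-sided p-values adjusted within each comparison. FPKM is no count, so no count test was used. The limma step was tested on simulated data. Depth is approximate, from the lowest values of long single-transcript genes.

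The 7 genes and the lists (MAX network, PRC1.6 partners, other PRC1, germline targets, MYC growth targets, E2F, MBT, MYC cofactors, and cell type markers) were chosen with earlier results of these data known. From each list, called genes and up to 4 others with the largest differences and a group mean of at least 10 FPKM were named. Genes chosen otherwise are Mycl, Mlx, Npm1, Ncl, Stag3 and Smc1b, after their values were seen. The promoter search is described with its sequences. The remaining sequence is not reported here. Alternatives were pseudocounts of 0.1 and 5, no filter, equal library medians, a fit of only the groups compared, the removal of single libraries, and a replicate block.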

Additional observations from a re-analysis of the deposited data

How the results depend on the processing

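No member of the family passed the threshold in any of the 567 recomputed values, of which 531 kept their direction and 36 were reversed; 16 of 42 differences were never reversed, those of Mycn in all 6 comparisons among them. With 2 libraries a group, leaving 1 out assumes that the lone library varies like the other groups. Causes of the changes below were not tested.

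Equal library medians turned Max in iPGCs against PGCs to -0.073, Pcgf6 in PGCLCs against iPGCs to -0.033 and Myc in EGCs against iPGCs to 0.058. A pseudocount of 5 turned E2f6 in PGCLCs against iPGCs to 0.0082.

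Leaving out single libraries gave these ranges of the log2 difference. For Myc they were -0.996 to 2.15 (EGCs against PGCs), -0.66 to 2.49 (iPGCs against PGCs), -0.53 to 2.61 (PGCLCs against PGCs), -0.18 to 0.43 (PGCLCs against iPGCs), -1.41 to 0.74 (EGCs against iPGCs) and -1.54 to 0.61 (EGCs against PGCLCs). For Pcgf6, in the same order, they were -0.70 to 1.72, -0.14 to 2.28, -0.13 to 2.29, -0.47 to 0.49, -1.15 to 0.033 and -1.16 to 0.022. Mga ran from -1.17 to 0.20 (EGCs against PGCs), -1.35 to 0.024 (PGCLCs against PGCs), -0.053 to 0.50 (PGCLCs against iPGCs), -0.019 to 0.81 (EGCs against iPGCs) and -0.24 to 0.58 (EGCs against PGCLCs). E2f6 ran from -1.03 to 0.074 (iPGCs against PGCs), -1.04 to 0.061 (PGCLCs against PGCs), -0.53 to 0.50 (PGCLCs against iPGCs) and -1.02 to 0.019 (EGCs against PGCLCs). Max ran from -1.70 to 0.053 (EGCs against PGCs) and -0.22 to 0.66 (PGCLCs against iPGCs), and L3mbtl2 from -0.89 to 0.20 (PGCLCs against iPGCs) and -0.13 to 1.08 (EGCs against iPGCs).

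The number of genes called over the whole table depended on the setting. For EGCs against PGCs it was 82 as reported, 31 with a pseudocount of 5, 14 without a filter, 8 with only the groups compared and 1 to 96 without single libraries. For iPGCs against PGCs it was 88 as reported, 166 and 34 with pseudocounts of 0.1 and 5, 18 without a filter, 46 with equal medians, 0 with only the groups compared (2214 at an unadjusted limma p below 0.05) and 4 to 208 without single libraries. For PGCLCs against PGCs it was 117 as reported, 183 and 32 with pseudocounts of 0.1 and 5, 0 without a filter (2231 unadjusted), 54 with equal medians, 0 with only the groups compared (1518 unadjusted) and 0 to 279 without single libraries, the 0 being without PGCLC library 1 (1430 unadjusted). Equal medians changed the split of higher and lower calls from 83 and 5 to 34 and 12 in iPGCs, and from 104 and 13 to 36 and 18 in PGCLCs, both against PGCs, and from 7 and 4 to 7 and 1 in EGCs against PGCLCs. For PGCLCs against iPGCs the count was 2 as reported, 1 with a pseudocount of 5, 0 without a filter (749 unadjusted), 5 with only the groups compared and 0 to 5 without single libraries. EGCs against iPGCs gave 13 as reported, 8 without a filter and 0 to 18 without single libraries, and EGCs against PGCLCs gave 11, 7 and 0 to 41.

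Dazl in PGCLCs against PGCs kept its direction in all 14 alternatives, and its adjusted limma p ran from 0.0313 (pseudocount of 0.1) to 0.239 (only the groups compared), passing in 2 of them. It was 0.0714 with a pseudocount of 5, 0.0790 without a filter and 0.0742 with equal medians.

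Deviations of same-numbered PGC, iPGC and PGCLC libraries correlated little, at 0.007 (PGC and iPGC), -0.03 (PGC and PGCLC) and 0.06 (iPGC and PGCLC). Such values cannot tell whether same-numbered libraries were handled together. With the replicate block, in a fit of those 6 libraries, 10 genes were called in iPGCs against PGCs (40 without the block), 6 in PGCLCs against PGCs (44 without) and 0 in PGCLCs against iPGCs (5 without; 448 at an unadjusted limma p below 0.05), and Dazl had an adjusted p of 0.117 in limma. The 3 comparisons with EGCs could not be blocked, because EGC lines 4 and 7 carry no matching numbers.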
